A study of Mus musculus with 8 samples.

Results

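The EP4 antagonist comparison asked what a blocked PGE2 receptor changes in the RNA of fibroblasts undergoing cardiac reprogramming. It uses 4 of the 8 arrays of the study, taken by their labels: 2 arrays of the group GHMT and 2 of the group GHMT/EP4 antagonist. Each group has 1 array from the fibroblasts labelled TTFs-1 (set 1) and 1 from those labelled TTFs-2 (set 2), and the arrays were paired by that set number. Each array gives 22206 transcript clusters, groups of probes designed to a transcribed unit, and a gene symbol was available for 19572 of them. All cultures were mouse postnatal tail-tip fibroblasts (TTFs) carrying retroviruses for the heart transcription factors Gata4, Hand2, Mef2c and Tbx5, together called GHMT. GHMT cultures received the vehicle DMSO and the others an EP4 antagonist, each given at the time of transduction. Serum-containing medium replaced the virus medium a day later. The sources used here give neither the name or dose of the antagonist, nor the time of harvest, the mouse strain or whether the sets came from different animals. The cultures are mixtures in which GHMT turns only some fibroblasts into cardiomyocyte-like cells, and no array of untransduced cells was among the samples.

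Prostaglandin E2 (PGE2) is made from arachidonic acid by cyclooxygenases and prostaglandin E synthases and leaves the cell to act on neighbouring receptors. EP4, the product of Ptger4, couples to the stimulatory G protein, so that its activation raises cyclic AMP (cAMP), activates protein kinase A and drives transcription through CREB. Phosphodiesterases end the signal by breaking cAMP down, and some of them, Pde4b among the best known, are themselves induced by cAMP. In fibroblasts PGE2 is a mediator of inflammation and a regulator of growth and matrix production.

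Values are log2 levels, so a difference of 1 is 2-fold. The 95th percentile of the 23 background probe sets of each array, 5.73 to 5.99 over the 8 arrays, was taken as its background level. A cluster counted as above background when the higher array of the pair exceeded its background level in each set, which held for 9716 clusters (43.75%). Members of a gene list that failed this rule in either set are counted as at background. Median levels were 5.28 for GHMT and 5.29 for the antagonist in set 1, and 5.14 and 5.10 in set 2. Arrays correlated at 0.9859 to 0.9952 within a set and at 0.9735 to 0.9843 between sets, so all differences below are the EP4 antagonist array minus the GHMT array of its own set. Nothing in the labels says that the sets are independent experiments, and p-values therefore describe only these arrays. Standard errors and p-values come from a moderated fit (limma eBayes), which draws each variance toward a value shared by all clusters. The smallest standard error was 0.197 and the median 0.208, so they are not the spread of a gene's own sets. In RNA from whole cultures, fewer cells of a type and less RNA per cell cannot be told apart.

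Among the prostanoid receptors, the target of the compound was the sole member above background by the rule for both sets. Ptger4 lay at 6.65 with GHMT and 6.34 with the antagonist in set 1, and at 7.49 and 7.35 in set 2. Its mean difference of -0.23 was close to its standard error of 0.20 (n = 2 sets). Ptger2, the other PGE2 receptor that raises cAMP, lay at background in all 8 arrays. The summed level of the 9 matched receptors, Ptger4 included, was 8.284 and 8.168 in set 1, and 9.385 and 8.636 in set 2. Ptgs2, which encodes cyclooxygenase-2, was measured at 9.72 (GHMT) and 9.81 (antagonist) in set 1, and at 12.86 and 13.72 in set 2. The sets thus entered the comparison with unlike Ptgs2 levels, and the antagonist arrays lay 0.09 and 0.86 above their GHMT arrays. Of 14 matched genes of prostaglandin synthesis and breakdown, 9 were above background, 2 of which were higher and 3 lower in both sets.

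The transduced factors were at like levels in both arms. Mef2c was measured at 19.09 (GHMT) and 19.16 (antagonist) in set 1, and at 18.14 and 17.86 in set 2. Tbx5 had mean differences of 0.04 ± 0.20 (SE) and Hand2 of -0.37 ± 0.23, the latter mostly from set 2 (-0.67 against -0.07 in set 1). Gata4 could not be compared, since its cluster was at background in every array.

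Across all 22206 clusters, limma with the TTF set as a block called 0 at an adjusted p under 0.05, while 1243 (5.60%) had an unadjusted p under 0.05, 596 higher and 647 lower with the antagonist. With 1 residual degree of freedom, the smallest adjusted p was 0.0777, for Pde4b. Quantile normalization of the same arrays gave 23 calls, an eBayes prior with a trend and robust fitting gave 8, median centring gave 1, and the fit with no replicate block gave 0 with 144 clusters under the unadjusted threshold. Because of this, the genes below were taken by size in each set, with no test: above background and with a measured difference of at least 2-fold in the same direction in both sets. By that rule 29 clusters (0.298% of 9716) were higher and 27 (0.278%) lower with the antagonist, and 6 (0.0618%) were 2-fold apart in opposite directions. The rule took values as measured, also where the dimmer array lay at background. With such arrays set to their background level, 26 higher, 21 lower and 4 opposite clusters reached 2-fold in both sets. The 9 others, which have a bound under 2-fold in a set, were Tnni1, Chit1 and Mb on the higher side, and Mcpt8, Svs3b, Plac1, Aff2, Dclk1 and Cep41 on the lower side. The 23 calls under quantile normalization were all among these 56. Both were drawn from the same arrays, so this overlap is no separate check.

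**Figure D1:**
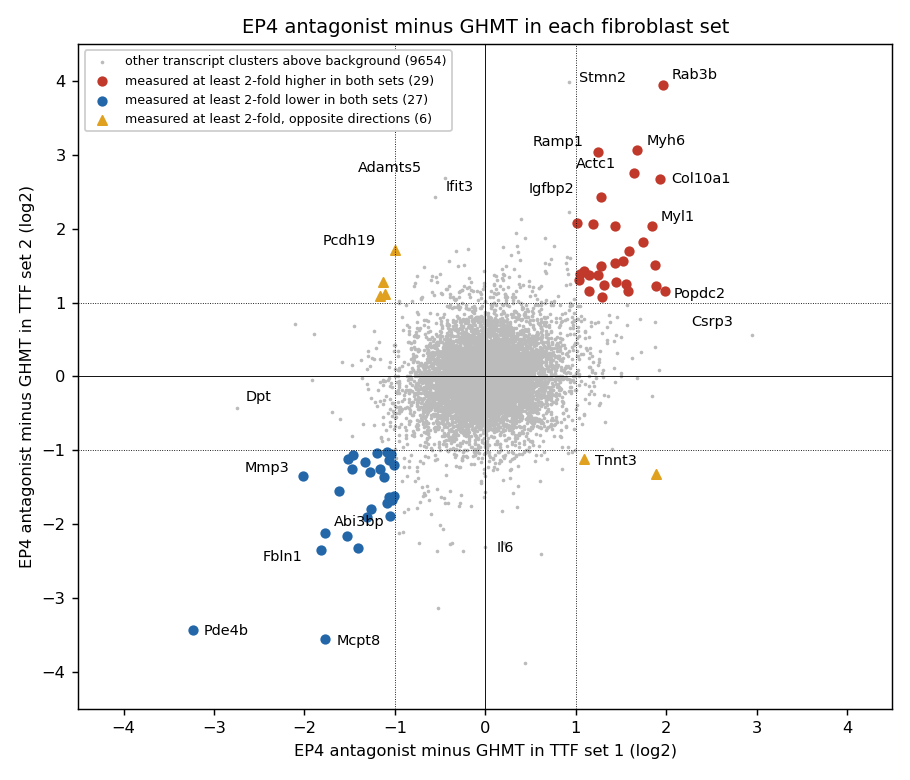
Difference between the EP4 antagonist array and the GHMT array in set 1 (horizontal axis, log2) and in set 2 (vertical axis, log2), for the 9716 transcript clusters above background. The 29 clusters with measured differences of at least 2-fold higher in both sets are red, the 27 lower ones are blue, and the 6 with opposite directions are orange triangles; arrays at background are drawn at their measured value. Pde4b stands alone at the lower left, near -3.2 in set 1 and -3.4 in set 2, and Rab3b at the upper right.

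The sets agreed for a minority of the larger differences. In set 1 alone, 134 clusters (1.38%) were at least 2-fold higher and 104 (1.07%) at least 2-fold lower. In set 2 the counts were 177 (1.82%) and 184 (1.89%). Of the clusters higher in set 1, 21.64% were also at least 2-fold higher in set 2, and 16.38% of those in set 2 were so in set 1. For the lower clusters the shares were 25.96% and 14.67%. Over all clusters above background the differences of the sets correlated at r = 0.2069, a description across genes, which are not independent replicates, within arrays that share their set. Same-direction differences of any size made up 52.6% of the clusters (25.0% higher and 27.6% lower in both sets), and this is the background for the gene lists below.

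cAMP breakdown was the pathway step with the largest single difference. Pde4b, which encodes a cAMP-specific phosphodiesterase, lay at 8.56 with GHMT and 5.33 with the antagonist in set 1, and at 9.33 and 5.90 in set 2. Both GHMT arrays were well above both antagonist arrays, and the antagonist array of set 1 was at background. The mean difference was -3.33 ± 0.20 (SE, n = 2 sets, limma adjusted p = 0.0777), and its size was at least 5.99-fold in set 1 and 10.8-fold in set 2. Pde4b passed the threshold under quantile normalization (limma adjusted p = 0.000444), median centring (0.0265), the trend and robust prior (0.0068) and the filter on dim clusters (0.0405). It did not pass in the fit with no replicate block, which gave 0 calls.

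Other phosphodiesterases mostly lay on the same side. Pde3b, which hydrolyses cAMP and is known for its role in insulin signalling, was lower by 0.76 in set 1 and by 1.78 in set 2. Pde10a was lower by 0.62 and 1.67. For Pde7b the difference was -0.39 in set 1. Its antagonist array of set 2 was at background, at least 4.49-fold below GHMT. Of the 10 phosphodiesterases above background (15 matched), 6 were lower and 1 higher in both sets, with a median mean difference of -0.78 against -0.01 over all clusters (-0.53 in set 1 and -1.27 in set 2). Over all 15, including the 5 at background, the median was -0.45. The exception was Pde2a, a cAMP and cGMP phosphodiesterase stimulated by cGMP. It lay at 6.21 (GHMT) and 7.22 (antagonist) in set 1, and at 5.62 and 7.70 in set 2, where the GHMT array was at background and the difference was at least 3.49-fold. Genes further along the pathway were mixed: 18 cAMP and CREB target genes were above background, 6 higher and 4 lower in both sets, with a median of -0.21. Il6, a cytokine gene on this list, was level in set 1 (8.33 in both arrays) and lower by 2.31 in set 2. Adenylyl cyclases and protein kinase A subunits had a median of 0.14 over 14 genes.

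**Figure D2:**
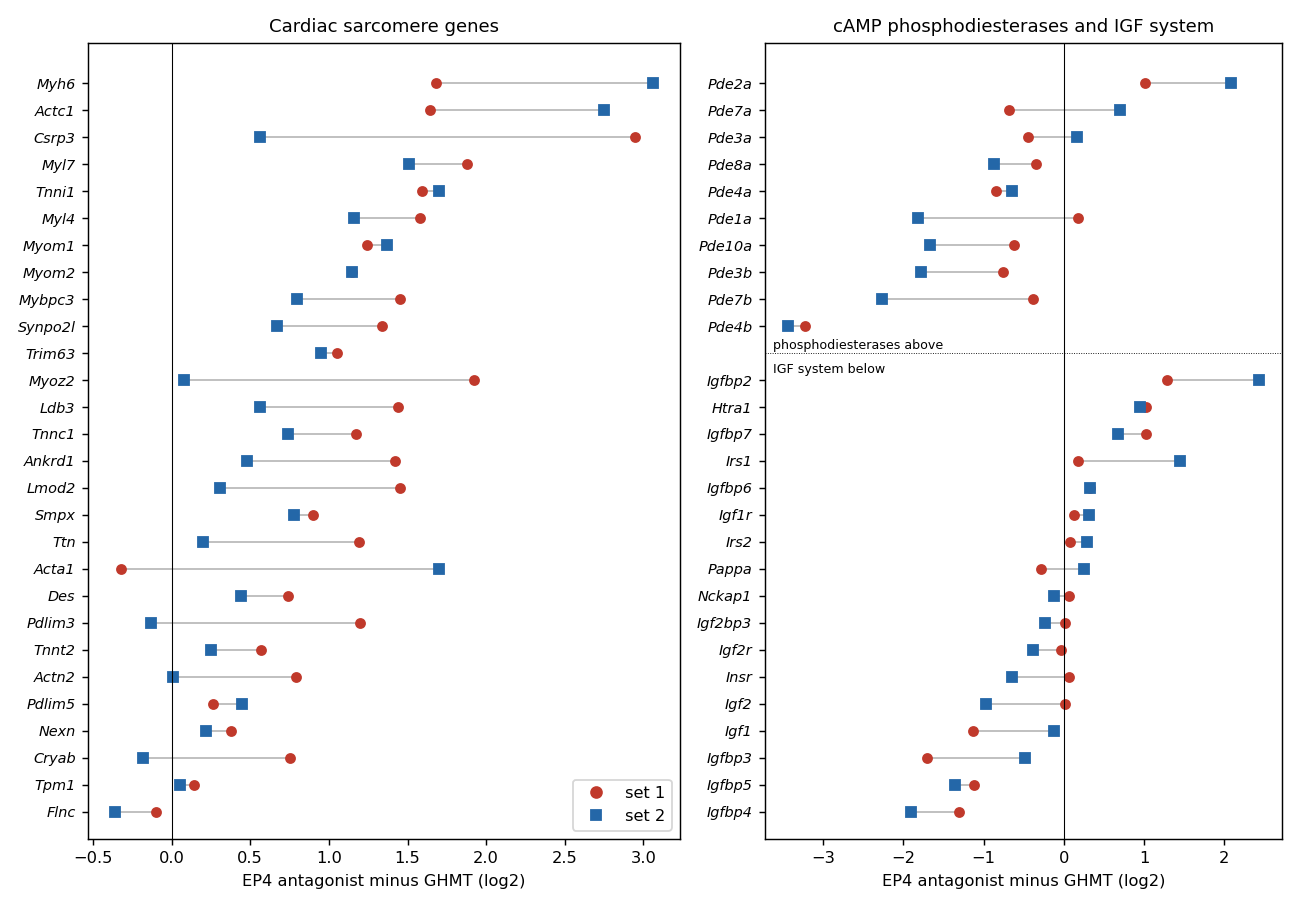
Difference between antagonist and GHMT arrays (log2, horizontal axis) in set 1 (red circles) and set 2 (blue squares) for each gene above background: 28 cardiac sarcomere genes on the left, and 10 phosphodiesterases above 17 IGF system genes on the right. Grey lines join the sets; 24 of 28 sarcomere genes lie right of 0 in both sets, and Pde4b has nearly the same value in both.

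Genes of the contractile apparatus made up the largest group on the higher side. Of 41 matched sarcomere genes 28 were above background, of which 24 (85.7%, against 25.0% of all clusters) were higher in both sets and 1, Flnc, was lower in both. The median mean difference was 0.95, with 1.20 in set 1 and 0.56 in set 2. As measured, 12 genes were at least 1.5-fold and 7 at least 2-fold higher in both sets, against 1.42% and 0.298% of all clusters. Taking all 41, including those at background, the median was 0.56. None passed the adjusted threshold in the fit with the block, and Actc1, Myh6, Myl7 and Tnni1 did under quantile normalization.

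Thick-filament genes included Myh6, a cardiac myosin heavy chain. It lay at 6.89 with GHMT and 8.57 with the antagonist in set 1, and at 4.19 and 7.25 in set 2. The GHMT array of set 2 was at background, which makes the difference at least 2.56-fold there, beside 3.20-fold in set 1 (mean 2.37 ± 0.35, limma adjusted p = 0.531). Myl7, the atrial regulatory myosin light chain, was measured at 11.42 and 13.30 in set 1, and at 9.60 and 11.11 in set 2. Each antagonist array lay above the GHMT array of its set, while the GHMT array of set 1 exceeded the antagonist array of set 2 (mean 1.70 ± 0.21). Myl4, an atrial essential light chain, lay at 11.63 and 13.21, then at 13.64 and 14.80. Myl1, an essential light chain of fast skeletal muscle, went from 9.40 to 11.24 in set 1 and from 8.33 to 10.36 in set 2 between GHMT and antagonist. The M-band genes Myom1 and Myom2, which crosslink thick filaments, had mean differences of 1.30 and 1.15.

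Actc1, the cardiac alpha-actin of the thin filament, lay at 12.72 with GHMT and 14.36 with the antagonist in set 1, and at 11.64 and 14.39 in set 2. The antagonist arrays nearly coincided and both exceeded both GHMT arrays (mean 2.19 ± 0.30, adjusted p = 0.531). Tnni1, slow skeletal troponin I and the form of the fetal heart, went from 4.99, at background, to 6.58 in set 1 and from 6.60 to 8.30 in set 2. Tnnt2, cardiac troponin T, was already high with GHMT and differed little: 17.50 and 18.07 in set 1, and 17.25 and 17.50 in set 2. Csrp3, a muscle LIM protein of the Z-disc, showed the largest gap between sets, with a difference of 2.95 in set 1 (9.11 to 12.06) and 0.56 in set 2 (13.25 to 13.81). Its GHMT array of set 2 was above its antagonist array of set 1.

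Muscle regulators and hormones were fewer. Smyd1, a histone methyltransferase of heart and skeletal muscle, lay at 7.60 and 9.34 in set 1, and at 5.26 and 7.08 in set 2, where the GHMT array was at background (mean 1.78 ± 0.20, adjusted p = 0.419). Popdc2, a membrane protein of striated muscle that binds cAMP, had differences of 1.98 and 1.16. Nppa, the atrial natriuretic peptide gene, was measured at 12.26 and 13.41 in set 1, and at 15.40 and 16.77 in set 2, a larger gap between sets than between treatments. Nppb, the related peptide of ventricle, was at background in set 1. Over the 12 cardiac transcription factors and hormones above background, 4 were higher and 4 lower in both sets, with a median of 0.03.

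Calcium handling and metabolism had smaller differences. Rrad, a small GTPase that restrains the L-type calcium channel, went from 9.58 to 11.01 in set 1 and from 10.37 to 12.41 in set 2 (mean 1.74 ± 0.23). Sln, sarcolipin, a small inhibitor of the calcium pump, lay at background with GHMT in both sets and at 6.02 and 6.62 with the antagonist, at least 1.22-fold and 1.65-fold. Slc8a1, the sodium-calcium exchanger, differed by 0.94 and 1.25, and Ryr2, the calcium release channel, by 0.55 and 0.52. Of 19 such genes above background, 10 were higher and 1 lower in both sets (median 0.26), and 18 of the 37 matched were at background. Mb, myoglobin, lay at background with GHMT in both sets and at 6.63 and 6.23 with the antagonist, at least 1.87-fold and 1.26-fold. Of 14 genes of oxidative and muscle metabolism, 10 were higher and 2 lower in both sets, with a median of 0.28.

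Markers of other muscle types are given beside these counts, since their part in the result was not tested. The smooth muscle and myofibroblast list had 16 genes above background, of which 11 were higher and 0 lower in both sets, with a median of 0.41. The summed level of its 19 genes was 19.17 with GHMT and 19.32 with the antagonist in set 1, and 18.80 and 19.06 in set 2. Acta2, smooth muscle actin, differed by 0.13 and 0.20. Ramp1, a co-receptor of the calcitonin gene-related peptide receptor, lay at 6.89 and 8.13 in set 1, and at 6.38 and 9.42 in set 2. Cspg4, the pericyte proteoglycan NG2, differed by 1.43 and 1.54. Of 30 skeletal muscle markers 26 were at background, including the myogenic regulators Myod1 and Myog. The 4 above background were Myl1, Myh8, Pax3 and Tnnt3, and the summed level went from 12.69 to 13.81 in set 1 and from 12.75 to 12.20 in set 2.

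**Figure D3:**
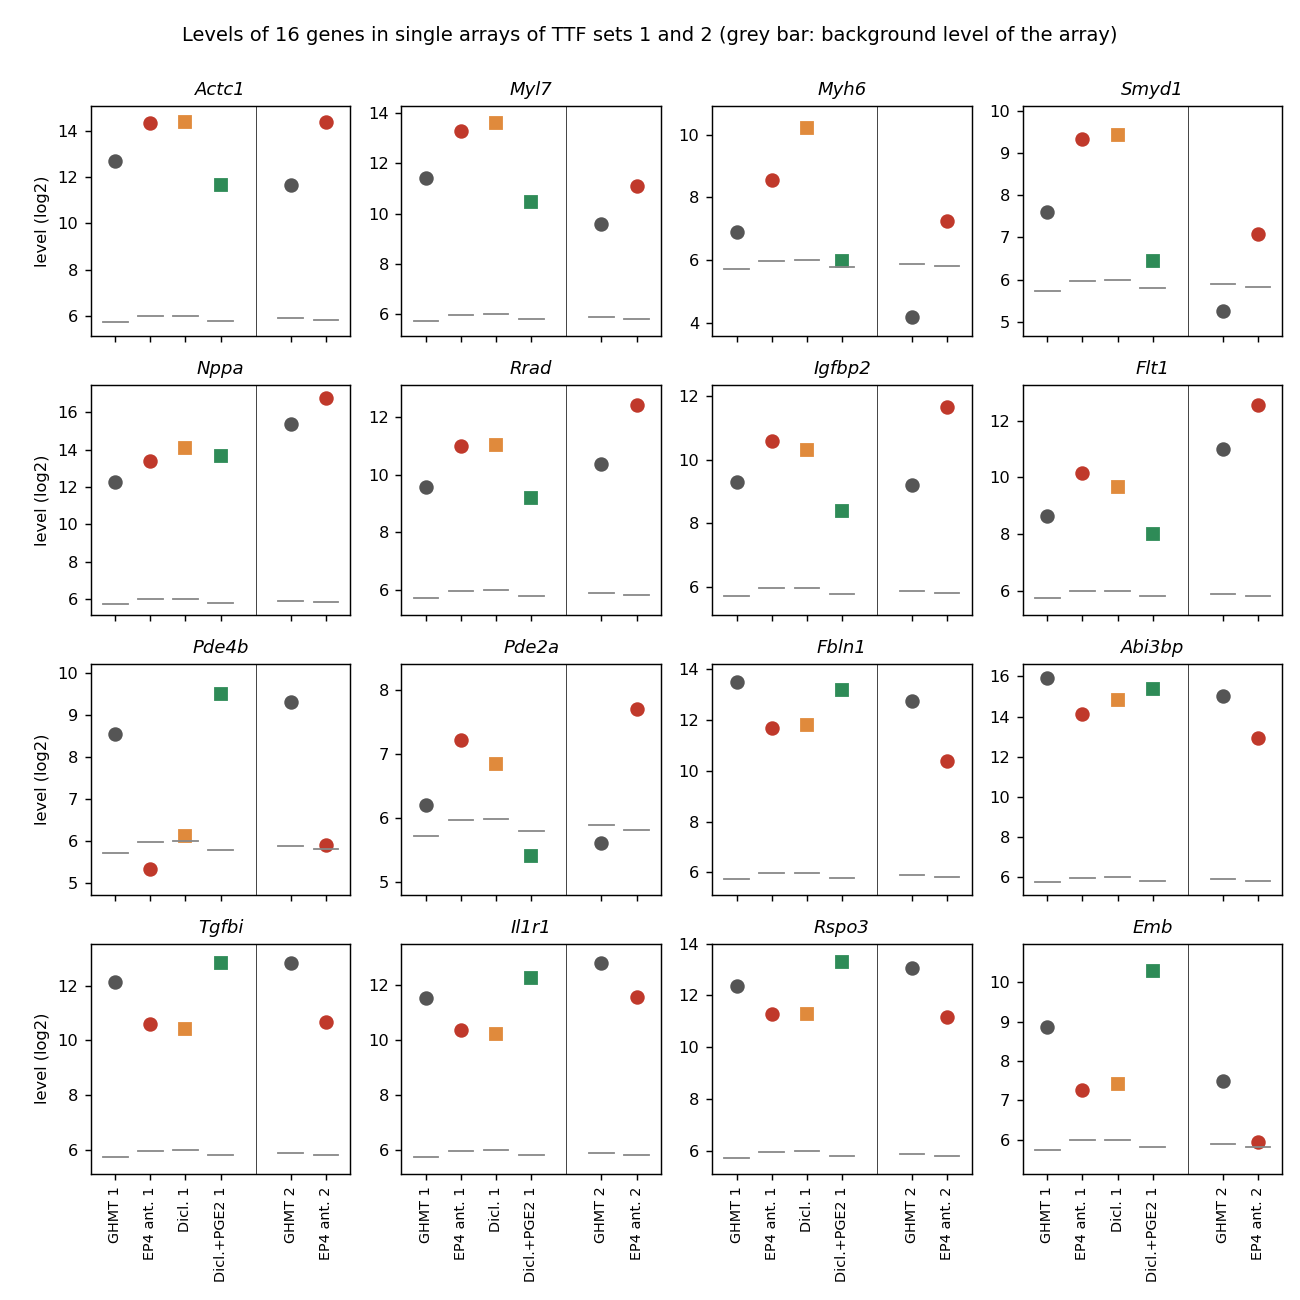
Log2 level of 16 genes in 6 single arrays. In each panel the first 4 points are set 1 (GHMT, EP4 antagonist, diclofenac, diclofenac plus PGE2) and the last 2 are set 2 (GHMT, EP4 antagonist); grey bars mark the background level of each array and vertical axes differ between panels. The antagonist lies above GHMT for the first 8 genes and Pde2a, and below it for Pde4b, Fbln1, Abi3bp, Tgfbi, Il1r1, Rspo3 and Emb.

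RefSeq promoter windows (GRCm38.p6, 250 bases before to 50 after each annotated start) were searched on both strands, because several of the higher genes encode muscle proteins. A window was available for 24 of the 28 higher genes with a symbol (38 windows, since a gene can have several starts) and for 20 of the 25 lower genes (28 windows). The CArG box, the binding sequence of serum response factor, was found in 4 of 38 windows of higher genes (10.5%), in 0 of 28 windows of lower genes and in 1.63% of all 32851 windows. The 250 bases before the start of these genes are printed 5′ to 3′ on the strand of the gene, with the CArG box in capitals. It begins 47 bases before the start in Actc1 (chr2:114052876-114053125, minus strand), 61 in Myl7 (chr11:5898783-5899032, minus strand), 99 in Myom1 (chr17:71019307-71019556, plus strand) and 45 in Cited1 (chrX:102252182-102252431, minus strand).
Actc1: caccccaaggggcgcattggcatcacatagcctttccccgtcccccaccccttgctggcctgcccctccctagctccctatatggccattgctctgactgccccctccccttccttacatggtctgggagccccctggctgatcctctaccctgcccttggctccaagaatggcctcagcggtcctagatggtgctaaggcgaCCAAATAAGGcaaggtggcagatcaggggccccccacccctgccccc
Myl7: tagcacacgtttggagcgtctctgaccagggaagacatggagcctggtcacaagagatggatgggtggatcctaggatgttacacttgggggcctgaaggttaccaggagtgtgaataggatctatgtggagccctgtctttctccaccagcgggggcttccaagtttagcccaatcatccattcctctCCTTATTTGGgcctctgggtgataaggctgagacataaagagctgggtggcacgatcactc
Myom1: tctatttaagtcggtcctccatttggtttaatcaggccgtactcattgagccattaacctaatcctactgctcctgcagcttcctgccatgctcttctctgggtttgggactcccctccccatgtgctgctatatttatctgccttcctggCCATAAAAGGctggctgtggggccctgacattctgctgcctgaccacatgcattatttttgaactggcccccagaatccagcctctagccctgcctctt
Cited1: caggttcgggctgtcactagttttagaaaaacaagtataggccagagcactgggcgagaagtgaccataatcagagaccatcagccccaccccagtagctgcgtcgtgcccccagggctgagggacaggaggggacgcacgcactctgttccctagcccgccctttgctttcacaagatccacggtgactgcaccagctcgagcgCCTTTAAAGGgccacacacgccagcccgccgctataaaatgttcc

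Actc1, Myl7 and Myom1 are sarcomere genes, and Cited1, a transcriptional co-regulator, lay at 9.27 and 10.82 in set 1, and at 5.90 and 7.15 in set 2. No MEF2 box was found in the windows of higher or lower genes (3.19% of all windows). The cAMP response element TGACGTCA was found in 1 window of a higher gene, Flt1, and in 0 of the lower genes (1.79% of all windows). The short form TGACG, which every TGACGTCA also contains, was found in 8 of 38 windows (21.1%) of higher genes and 5 of 28 (17.9%) of lower genes, against 20.8% of all windows. The GATA-type motif AGATAA was in 5 of 38 and 2 of 28 windows, against 11.2% of all, and the T-box motif AGGTGTGA in 2 of 38 and 0 of 28, against 1.28%. Pde4b carried the short element, which reads CGTCA on the strand of the gene and begins 34 bases before the start in this window (chr4:102421305-102421554, plus strand); it is shown, in capitals, because the gene had the largest mean difference of the 56 clusters.
Pde4b: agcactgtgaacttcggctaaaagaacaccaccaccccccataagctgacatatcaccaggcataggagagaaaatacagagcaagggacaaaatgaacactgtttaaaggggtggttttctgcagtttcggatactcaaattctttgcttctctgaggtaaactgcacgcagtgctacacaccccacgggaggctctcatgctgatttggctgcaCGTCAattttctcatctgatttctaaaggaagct

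These matches are letters in a window and were not measured as bound sites.

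Matrix glycoproteins and proteoglycans held 5 of the 25 named genes on the lower side, more than any other list. It was also the longest list, with 75 entries and 51 genes above background. By the same rule 2 of 17 IGF system genes were lower, against 0.278% of all clusters above background. Fbln1, fibulin 1 of elastic fibres and basement membranes, lay at 13.50 with GHMT and 11.68 with the antagonist in set 1, and at 12.75 and 10.40 in set 2. Both GHMT arrays exceeded both antagonist arrays (mean -2.08 ± 0.22, limma adjusted p = 0.419). Abi3bp, a matrix protein that binds cells and collagen, was measured at 15.91 and 14.14, then at 15.04 and 12.92, again with no overlap (-1.94 ± 0.21). Tgfbi, a TGFb-induced matrix protein that binds integrins, lay at 12.14 and 10.61 in set 1, and at 12.83 and 10.67 in set 2. Vcan, the large proteoglycan versican, differed by -1.03 and -1.68, and Prg4, lubricin, by -1.01 and -1.62; the Prg4 level was 10.23 with GHMT in set 1 and 15.68 in set 2.

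Of 51 matrix glycoproteins and proteoglycans above background, 26 (51.0%, against 27.6% of all clusters) were lower and 8 higher in both sets. The median was -0.30. At least 1.5-fold lower in both sets were 12, and at least 2-fold 5, against 1.33% and 0.278% of all clusters. Collagens had a median of -0.23 over 16 genes, with 8 lower and 2 higher in both sets. Col1a1 and Col3a1, which encode chains of fibrillar collagens, were lower by 0.73 and 1.00 in set 1 and by 0.42 and 0.56 in set 2. Col1a2, the partner chain of Col1a1, differed in direction, -1.0 in set 1 and 0.43 in set 2. Col10a1, a collagen of hypertrophic cartilage, went the other way: 7.28 and 9.21 in set 1, and 8.44 and 11.11 in set 2 (mean 2.30 ± 0.25, adjusted p = 0.419). P4ha2, a prolyl hydroxylase needed for collagen folding, was lower by 1.20 and 1.04. Postn, periostin, differed in direction, -1.25 in set 1 and 0.25 in set 2.

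Proteases had no common direction, with a median of -0.02 over 33 genes. Mmp3, stromelysin 1, lay at 10.78 and 8.76 in set 1, and at 12.20 and 10.85 in set 2 (-1.68 ± 0.24). Mcpt8, a granule protease known from basophils, was measured at 6.19 and 4.42 in set 1, where the antagonist array was at background, and at 12.26 and 8.70 in set 2, a difference of 11.8-fold. Of 28 matched macrophage and leukocyte markers, 27 were at background, Ptprc and Adgre1 in all 4 arrays. The exception was Mcpt4, also a granule protease, which went the opposite way to Mcpt8. It lay at 5.58 (background) and 6.74 in set 1, and at 6.66 and 7.05 in set 2. The summed level of the list was 9.21 and 9.28 in set 1, and 8.88 and 8.93 in set 2.

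Fibroblast identity genes were above background in 28 of 37 cases, with 11 lower and 5 higher in both sets (median -0.23; 0.01 in set 2 alone). Emb, embigin, a partner of monocarboxylate transporters, lay at 8.87 and 7.25 in set 1, and at 7.50 and 5.95 in set 2. Cd34, a surface marker of dermal fibroblast progenitors, was lower by 1.35 and 0.65. Among the 5 members higher in both sets, Mfap5 differed by 0.18 and 1.33, and Cd44 by 0.55 and 0.35. Dpt, dermatopontin, was lower by 2.75 in set 1, where the antagonist array was at background, and by 0.43 in set 2. Tnmd, a membrane protein of tendon cells from the cartilage and bone list, was lower by 1.52 and 1.12. Of 24 adipocyte genes, 15 were at background; of the other 9, 7 were lower and 2 higher in both sets. Their median was -0.48, against -0.10 over all 24.

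Signalling genes on the lower side included ligands and receptors of several pathways. Il1r1, the receptor of interleukin 1, lay at 11.51 and 10.35 in set 1, and at 12.81 and 11.55 in set 2. Rspo3, which strengthens Wnt signalling, was measured at 12.35 and 11.29, then at 13.04 and 11.15, with both antagonist arrays below both GHMT arrays. The Wnt list as a whole had 4 higher and 4 lower of 14 genes. Cdon, a co-receptor for Hedgehog ligands, was lower by 1.09 and 1.02, and its list had 6 lower and 1 higher of 10. Bmp4, a growth factor of the TGFb family, was lower by 1.15 and 0.83.

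The insulin-like growth factor binding proteins split. Igfbp2 was higher, from 9.31 to 10.59 in set 1 and from 9.20 to 11.63 in set 2. Igfbp4 was lower, from 12.64 to 11.33 in set 1 and from 12.34 to 10.44 in set 2, and Igfbp5 from 14.07 to 12.95 and from 10.73 to 9.37. Over the 17 genes of the system above background the median was -0.03, with 7 higher and 5 lower in both sets.

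Receptors and ligands on the higher side included Flt1, VEGF receptor 1, at 8.64 and 10.16 in set 1, and at 11.01 and 12.57 in set 2. The other 16 matched endothelial markers were at background, and the summed level of that list was 9.47 and 10.52 in set 1, and 11.17 and 12.62 in set 2. The defining markers Pecam1 and Cdh5 were below the background level in all 4 arrays. Hbegf, a ligand of the EGF receptor, differed by 1.44 and 1.28. Rab3b, a GTPase of regulated secretion, had the largest mean difference on this side: 7.50 and 9.46 in set 1, and 6.96 and 10.91 in set 2 (2.96 ± 0.45, adjusted p = 0.531). Both antagonist arrays exceeded both GHMT arrays, and the difference in set 2 was 15.5-fold against 3.89-fold in set 1. Of 27 Schwann and neural markers, 20 were at background. Cobl, an actin nucleator, Coro6, a coronin, and Rcan2, a calcineurin regulator, had mean differences of 1.27, 1.22 and 1.25. Chit1, a chitinase, lay at background with GHMT in both sets and at 6.14 and 7.05 with the antagonist. Map3k7cl differed by 1.89 and 1.22, and Cox6b2, a cytochrome c oxidase subunit, by 1.29 and 1.08.

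Other genes that met the size rule on the lower side were these. Ndufa4l2, a mitochondrial protein induced by low oxygen, was lower by 1.09 and 1.72. Slc6a17, a neuronal amino acid transporter, was lower by 1.07 and 1.63, and Clmp, an adhesion molecule, by 1.33 and 1.16. For Plac1, Svs3b and Dclk1 both antagonist arrays were at background, with GHMT levels of 6.12 to 7.17 over these genes and sets, so that they have only lower bounds, from at least 1.10-fold to at least 2.29-fold. Aff2 lay at 7.10 and 6.03 in set 1, and at 6.63 and 5.50, at background, in set 2 (at least 1.75-fold).

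Growth and stress lists shifted by less than 2-fold in most genes. Of 26 S phase genes above background, 16 (61.5%) were lower and 1 higher in both sets, with a median of -0.23. Of 35 G2 and mitosis genes, 16 were lower and 5 higher, with a median of -0.14. Among p53 targets and genes of cell cycle arrest, 14 of 20 were higher and 2 lower in both sets (median 0.40). Cdkn1a, the inhibitor p21, was measured at 16.16 and 16.81 in set 1, and at 16.44 and 17.17 in set 2. The related inhibitor Cdkn1b, with the largest mean difference of this list, went the other way, with -0.63 in set 1 and -1.55 in set 2. Hypoxia and glycolysis genes had 17 of 28 lower and 1 higher, with a median of -0.16. No member of these lists passed the adjusted threshold.

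**Figure D4:**
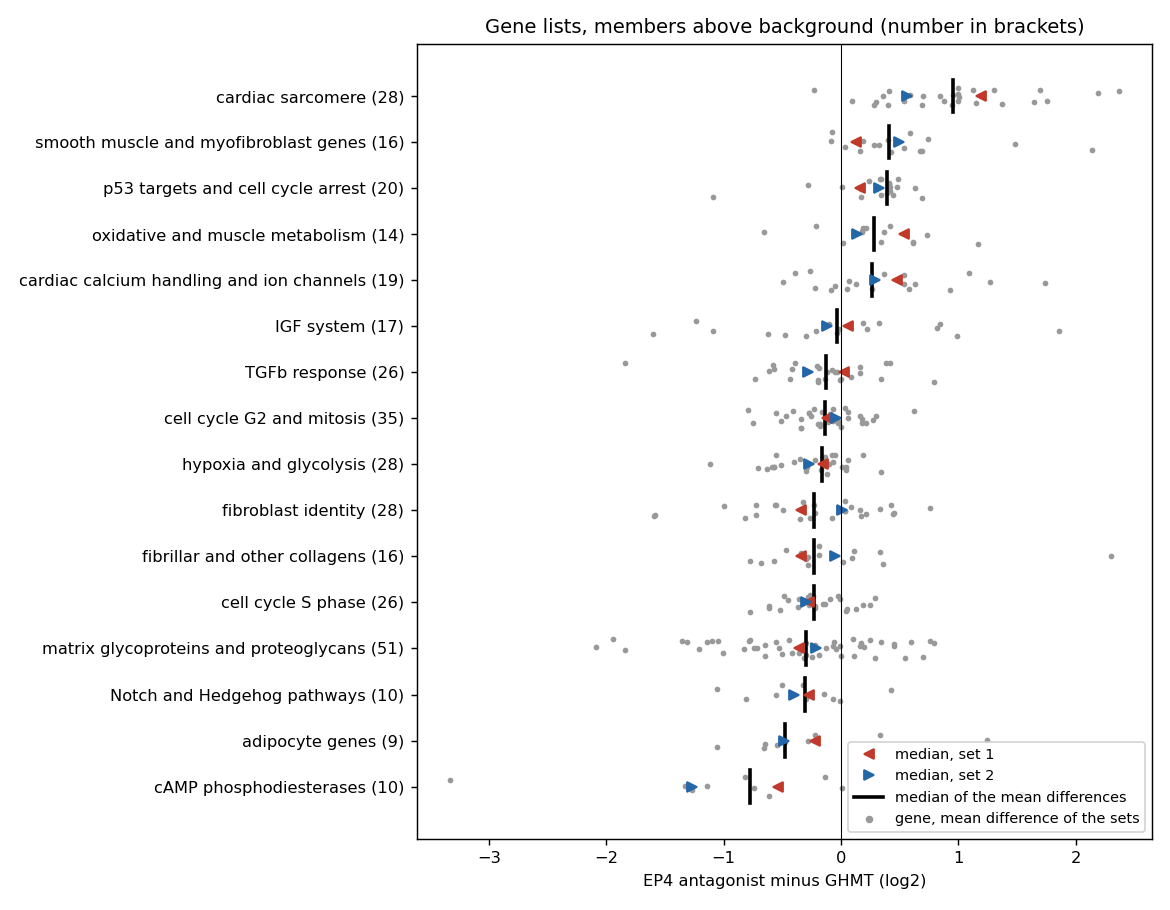
Mean difference of the sets (log2, horizontal axis; grey points) for the members above background of 16 gene lists, with the number of members in brackets. Black bars mark the median of the mean differences, red triangles the median in set 1 and blue triangles the median in set 2; the cardiac sarcomere list has the highest median (0.95) and the cAMP phosphodiesterases the lowest (-0.78) of those drawn.

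The same genes were then read in 2 arrays that the comparison did not use. Diclofenac inhibits the cyclooxygenases that make PGE2, and a second culture received diclofenac with PGE2 added back; both are from set 1, with 1 array each, so these values have no replicate check and share their fibroblasts with the set 1 pair. Over all clusters above background, diclofenac was higher than diclofenac plus PGE2 in 47.0% and lower in 52.0%. Of the 29 clusters higher with the EP4 antagonist, all 29 were higher with diclofenac than with diclofenac plus PGE2, 27 of them at least 2-fold (2.17% of all clusters), with a median difference of 1.64 and a range from 0.42 to 4.23. Of the 27 lower clusters, 24 were lower with diclofenac, 18 of them at least 2-fold (1.32% of all), with a median of -1.50 and a range from -3.40 to 0.66. The median over all clusters was -0.02. Levels in these 2 arrays were taken as measured, without the background rule. Chit1, for example, counted as 2-fold higher though at background in both (5.57 with diclofenac, 4.56 with PGE2 added back). Mb was at background with PGE2 added back, and Svs3b, counted as lower at -0.08, was at background with diclofenac. At the 1.5-fold size 138 clusters (1.42%) were higher and 129 (1.33%) lower in both sets, and 133 and 105 of them had the matching direction in these arrays. Among the 26 higher and 21 lower clusters whose bound in the antagonist and GHMT arrays reached 2-fold, 26 and 19 did.

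A selection of genes named above had these levels. Pde4b lay at 6.12 with diclofenac and 9.52 with PGE2 added back, Myh6 at 10.22 and 5.99, and Actc1 at 14.37 and 11.67. Smyd1 was measured at 9.43 and 6.45, Col10a1 at 10.82 and 6.88, and Emb at 7.42 and 10.29. The exceptions were Igfbp5, which was 0.66 higher with diclofenac than with PGE2 added back, Cep41, a centrosomal protein (0.41), and Tmem26 (0.23). Each was lower with diclofenac than with GHMT in set 1: Igfbp5 at 13.42 against 14.07, Cep41 at 7.19 against 7.38, and Tmem26 at 8.48 against 9.51. That GHMT array is one of those by which the genes were chosen as lower, so it is no separate check. With PGE2 added back the levels were lower still, at 12.76, 6.78 and 8.25. Nppa differed least among the higher genes, at 14.08 and 13.66, and Abi3bp, at 14.85 and 15.37, was 1.43-fold apart there against 3.41-fold and 4.35-fold with the antagonist. In the sarcomere list 23 of 28 genes were higher with diclofenac than with PGE2 added back (median 0.85), and in the phosphodiesterase list 8 of 10 were lower (median -0.70). The matrix glycoproteins did not show a common direction there, with 24 higher and 27 lower and a median of -0.02, while G2 and mitosis genes were lower in 28 of 35.

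**Figure D5:**
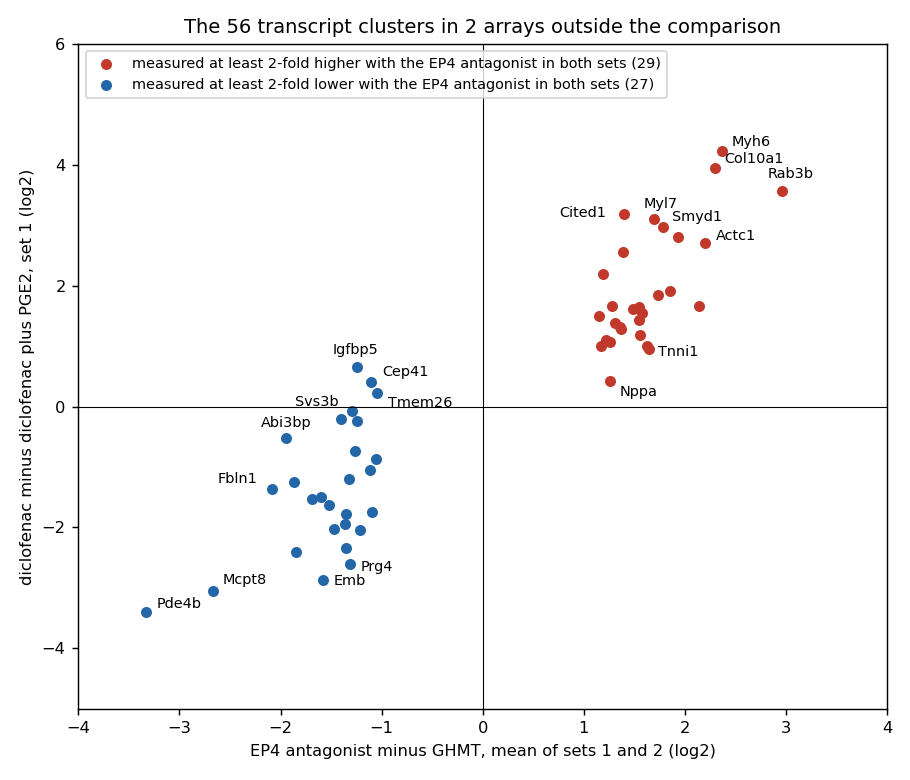
Mean difference between EP4 antagonist and GHMT arrays over both sets (log2, horizontal axis) against diclofenac minus diclofenac plus PGE2 in set 1 (log2, vertical axis, 1 array each), for the 56 clusters with measured differences of at least 2-fold in the same direction in both sets. All 29 red points lie above 0, and 24 of the 27 blue points lie below it; Igfbp5, Cep41 and Tmem26 are above. Arrays at background are drawn at their measured value.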

How the data were processed

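RNA of 8 cultures was measured on Clariom S Mouse arrays, and 4 arrays (GHMT and GHMT/EP4 antagonist, TTF sets 1 and 2) form this comparison. The deposited values are log2 levels; per the submitters' design text and processing notes, the authors normalized them with SST-RMA in Affymetrix Expression Console 1.4. The sources used here give neither the genome build nor whether both sets were normalized together. Of 28846 rows, 6640 control probe sets were left out of the tests. Gene names came from the platform annotation: 19572 clusters had 1 symbol, 0 several and 2634 none; for 55 symbols on several clusters the brightest was used.

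Differences were fitted over all 22206 clusters in R 4.3.3 by limma 3.58.1 (lmFit, eBayes). The model held the TTF set as a block, tests were two-sided, and p-values were adjusted by Benjamini and Hochberg. The script was tested on simulated data. There the fit with the block recovered 4% of changes of 1 on the log2 scale and 83% of changes of 2. The pairing comes from the set numbers in the titles; deviations of same-numbered arrays from their group means correlated at 0.7244 across clusters. SE are from this fit and are moderated by eBayes. The number of arrays limits the precision. Where the lower array lay at background, the fold compares the brighter array with the background level of the dimmer one ("at least"). Named were the 20 genes with the largest smaller-of-the-sets difference in each direction, every gene 2-fold apart in opposite directions, up to 5 members of each of 40 lists by mean difference, and a fixed set of factors, receptors and markers; predicted genes were skipped. Genes beyond this rule (those in figures, the genes 2-fold apart in both sets, Flnc, Col1a2, Myh8, Pax3, Adamts5 and the other genes of single sets) were named after their values were seen. Lists (1229 entries, 1143 matched) are described by counts and medians, with no set test. Summed levels are log2 of the sum of linear levels over a list. The members and lists, and the motifs searched, were chosen with earlier results of these data known. Alternatives tried were no block, quantile normalization, median centring, another prior, a filter on dim clusters, all 8 arrays, a 1.5-fold size, no background rule and leaving out arrays. The TGFb and Wnt inhibitor arrays were not analysed here beyond the fit of all 8 arrays. Some genes are not reported here.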

Additional observations from a re-analysis of the deposited data

Results flagged for a closer look

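The 6 clusters with measured differences of at least 2-fold in opposite directions in the sets are listed because the antagonist array moved one way in set 1 and the other way in set 2. With 1 array per group and set, the difference between the sets was not tested. Tnnt3, fast skeletal troponin T, was 1.09 higher with the antagonist in set 1 and had a difference of -1.12 in set 2. Pcdh19, a protocadherin of cell adhesion, had -1.0 in set 1 and 1.71 in set 2. Brinp1 had -1.17 and 1.09, and Itgb3bp, a centromere protein, -1.11 and 1.12; for both the antagonist array of set 1 was at background, so that Brinp1 was at least 1.24-fold lower there and Itgb3bp has no fold. A cluster without a gene name here had 1.89 and -1.32, and another had -1.13 and 1.28.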

How the results depend on the processing

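The number of calls depended on the fit. It was 0 as reported, 23 (13 higher, 10 lower) with quantile normalization and 8 (4 higher, 4 lower) with a trend and robust prior. It was 1 with median centring, and 1 of 10152 clusters above background in 2 of the 4 arrays. The fit of all 8 arrays also gave 0 but could not differ, since each added group has 1 array and adds no residual degree of freedom. The fit with no replicate block, which ignores the pairing of the arrays by TTF set, gave 0. Leaving out 1 array left no test with the block; without it the arms came from unequal sets, and the calls ranged from 1 to 25: 21 without GHMT of set 1, 25 without the antagonist of set 1, 1 without GHMT of set 2 and 16 without the antagonist of set 2. The counts of 29 higher, 27 lower and 6 opposite clusters became 138, 129 and 92 at 1.5-fold; other scalings, no background rule and, chosen after seeing the data, arrays at background set to the background level (26, 21 and 4) kept them within 1.5 times. When 1 array, and with it that set, was left out, the sarcomere median of 0.95 became that of the other set. These are the values given above, 1.20 in set 1 and 0.56 in set 2, and no separate check. List medians whose sign differed between the sets, such as TGFb response (0.03 in set 1, -0.28 in set 2), depend on the array left out. A cluster at background has no measured level, and 56 clusters taken by size in 4 arrays carry no estimate of how many would recur.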

Other observations

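Some genes had measured differences of at least 4-fold in 1 set and under 1.5-fold in the other, by a rule chosen after the values were seen. In set 1 these were Csrp3 and Dpt, described above. In set 2, 3 genes were higher: Adamts5, an aggrecan-degrading protease (9.78 with GHMT, 12.47 with the antagonist; 10.76 and 10.31 in set 1), Ifit3, an interferon-induced gene (5.83, at background, and 8.26; 7.49 and 6.93 in set 1), and Myh8, the perinatal skeletal myosin heavy chain (4.54, at background, and 6.67, at least 1.71-fold; 5.99 and 6.38 in set 1). The other 7 were lower in set 2: Il6, Pde7b, Sfrp1, Cd55, Cthrc1, Serpina3n and Erv3. Sfrp1, a secreted inhibitor of Wnt ligands, lay at 13.79 with GHMT and 11.54 with the antagonist in set 2, against 12.67 and 12.30 in set 1. Serpina3n, a serine protease inhibitor, was measured at 15.49 and 13.24 in set 2, and at 13.85 and 14.06 in set 1. Stmn2, a neuronal microtubule regulator, differed by 3.99 in set 2 and by 0.92 in set 1, where its GHMT array was at background. Whether these differences between sets exceed the spread between cultures was not tested.

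Other lists lay near the median of all clusters (-0.01). Interferon response genes had a median of -0.12 (19 genes above background), cholesterol synthesis genes -0.08 (22), unfolded protein and stress response genes -0.04 (33), and epigenetic and splicing genes known as barriers to reprogramming -0.06 (23). In both sets 7 interferon genes were lower and 1 higher (36.8% and 5.26%, against 27.6% and 25.0% of all clusters). For cholesterol synthesis 9 were lower and 2 higher (40.9% and 9.09%). The stress and the barrier lists each had 7 lower and 5 higher. Integrins and adhesion genes were at 0.08 (24), with 11 higher and 4 lower in both sets.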
